A study of Mus musculus with 10 samples.

Results

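The mitochondrial genome is represented in the deposited count table by 13 genes of 35275, chosen as every row placed on the mitochondrial chromosome. They are the protein genes of the mitochondrial DNA: 7 subunits of respiratory complex I (mt-Nd1, mt-Nd2, mt-Nd3, mt-Nd4, mt-Nd4l, mt-Nd5 and mt-Nd6), 1 of complex III (mt-Cytb), 3 of complex IV (mt-Co1, mt-Co2 and mt-Co3) and 2 of complex V (mt-Atp6 and mt-Atp8). The table holds 0 mitochondrial rRNA rows and 0 tRNA rows, so the 2 rRNA and 22 tRNA genes that the GENCODE M21 annotation of mm10 also places there were not analysed here. Retinal RNA came from C57BL/6 mice of 10 to 12 weeks. In 5 libraries the treatment was vehicle, although their titles read untreated, and in the other 5 it was vigabatrin at 140 mg/kg/day, delivered by a subcutaneous osmotic pump over 11 days. The drug, an antiepileptic, inactivates GABA transaminase, an enzyme of the mitochondrial matrix that degrades the transmitter GABA.

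Mitochondria keep a small circular genome whose strands are transcribed as long precursors. In the usual account of their processing, tRNAs that lie between the coding genes are excised, which frees the mRNAs between them. The encoded subunits join many nuclear-encoded subunits in the respiratory chain, which feeds ATP synthase. Photoreceptors use much ATP for ion pumping and phototransduction, and their inner segments are packed with mitochondria. Pieces of mitochondrial DNA have also been copied into the nuclear chromosomes during evolution, and a short read from such a copy can be identical to one from the mitochondrial gene.

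Each library is named here by its group and its title number, and totals ranged from 36056135 to 54052502 counts. The labels do not give each library its own animal, so every p-value below measures the spread between these libraries. All 10 rod markers examined were detected, with summed levels of 57171 to 62726 CPM (counts scaled to a common library total) in vehicle and 56104 to 61967 CPM in vigabatrin libraries. Lens transcripts set 4 libraries apart: the 16 lens markers, of which 1 was at 0 throughout, summed to 38.0 to 19407 CPM in vehicle and 3.97 to 20014 CPM in vigabatrin libraries. Vehicle 835 and 1582 and vigabatrin 2344 and 2429 held the most, at 1.29% to 2.001% of their counts, against at most 0.124% in the other 6. Pigment epithelium and choroid markers, 9 of 9 in the table, summed to 25.4 to 970 CPM in vehicle and 13.8 to 385 CPM in vigabatrin libraries, and 5 blood markers to 54.9 to 326 and 32.0 to 226 CPM. The 4 cornea markers summed to at most 12.8 CPM and the 8 muscle markers to at most 7.95 CPM. All 5 vigabatrin libraries have title numbers at or above 2300, as does 1 vehicle library, 2345, so outside that 1 library treatment and whatever the title number reflects cannot be told apart.

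The stretches below were chosen because they show how closely the mitochondrial genes resemble their nuclear copies, which bears on every count that follows. Sequences are from the GENCODE M21 transcripts of mm10, 5′ to 3′ along each gene, and capitals mark bases at which gene and copy differ. Substitutions give the mitochondrial base first, a position counted from 1 at the first base of the gene, and then the base of the copy. The first pair is the start of mt-Co2, a core subunit of cytochrome c oxidase, at chrMT:7013-7102 on the plus strand, and of Gm28661, a pseudogene at chr1:24615476-24615565 on the minus strand. The 90 bases are identical.
mt-Co2: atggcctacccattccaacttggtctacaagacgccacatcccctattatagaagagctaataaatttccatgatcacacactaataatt
Gm28661: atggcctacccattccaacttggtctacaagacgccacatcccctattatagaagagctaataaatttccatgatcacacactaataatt

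The start of mt-Nd3, a membrane subunit of complex I, at chrMT:9459-9548 on the plus strand differs from its pseudogene Gm28438, at chr1:24613030-24613119 on the minus strand, by T3C.
mt-Nd3: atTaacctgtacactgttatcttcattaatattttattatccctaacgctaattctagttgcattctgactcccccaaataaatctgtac
Gm28438: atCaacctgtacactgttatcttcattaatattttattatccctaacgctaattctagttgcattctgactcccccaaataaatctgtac

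The best full-length copy of mt-Co1, the catalytic subunit of cytochrome c oxidase, lies on chromosome 2. The start of mt-Co1 at chrMT:5328-5417 on the plus strand differs from Gm13340, at chr2:22589558-22589647 on the minus strand, by C54A, A60G and G87A.
mt-Co1: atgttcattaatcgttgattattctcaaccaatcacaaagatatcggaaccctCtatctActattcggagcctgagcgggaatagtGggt
Gm13340: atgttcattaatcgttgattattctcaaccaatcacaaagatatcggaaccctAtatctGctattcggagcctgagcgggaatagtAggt

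Copies on chromosome 4 resemble mt-Cytb and mt-Nd6 less closely. Bases 2 to 91 of mt-Cytb, the cytochrome b subunit of complex III, at chrMT:14146-14235 on the plus strand differ from Gm11410, at chr4:80003990-80004079 on the plus strand, by G14A, C24T, C61T, T66C and C78T.
mt-Cytb: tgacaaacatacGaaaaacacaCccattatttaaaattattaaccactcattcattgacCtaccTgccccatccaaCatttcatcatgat
Gm11410: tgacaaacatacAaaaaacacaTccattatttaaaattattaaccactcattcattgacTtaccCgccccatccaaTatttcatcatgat

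The start of mt-Nd6, the 1 protein gene read from the opposite strand, at chrMT:13981-14070 on the minus strand differs from Gm11408, at chr4:80003825-80003914 on the minus strand, by A24G, T48C and A76G.
mt-Nd6: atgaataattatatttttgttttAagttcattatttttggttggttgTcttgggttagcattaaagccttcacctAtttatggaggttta
Gm11408: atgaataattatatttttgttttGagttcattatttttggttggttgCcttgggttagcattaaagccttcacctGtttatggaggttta

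The 13 genes together took between 2.30% and 2.89% of a library's counts, and the 2 groups overlapped. In the vehicle libraries the share was 2.51% in 832, 2.71% in 835, 2.30% in 1580, 2.61% in 1582 and 2.34% in 2345. Among the vigabatrin libraries it was 2.36% in 2344, 2.89% in 2347, 2.53% in 2349, 2.51% in 2428 and 2.37% in 2429. The highest library was a vigabatrin library and the lowest a vehicle library, but the next highest, 835 and 1582, were vehicle libraries. Group means were 2.49% ± 0.172 in vehicle and 2.53% ± 0.216 in vigabatrin libraries (SD, n = 5 each). Their difference of 0.0386 percentage points was smaller than either SD (exact two-sided permutation test over every assignment of the libraries, p = 0.77, 0.921 after Benjamini-Hochberg adjustment over 6 shares). Wilson 95% half-widths of the single shares were 0.00406 to 0.00521 percentage points and cover counting error only, so the libraries differ far beyond counting noise. Because these are bulk samples, fewer mitochondria-rich cells and less mitochondrial RNA per cell cannot be told apart.

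**Figure D1:**
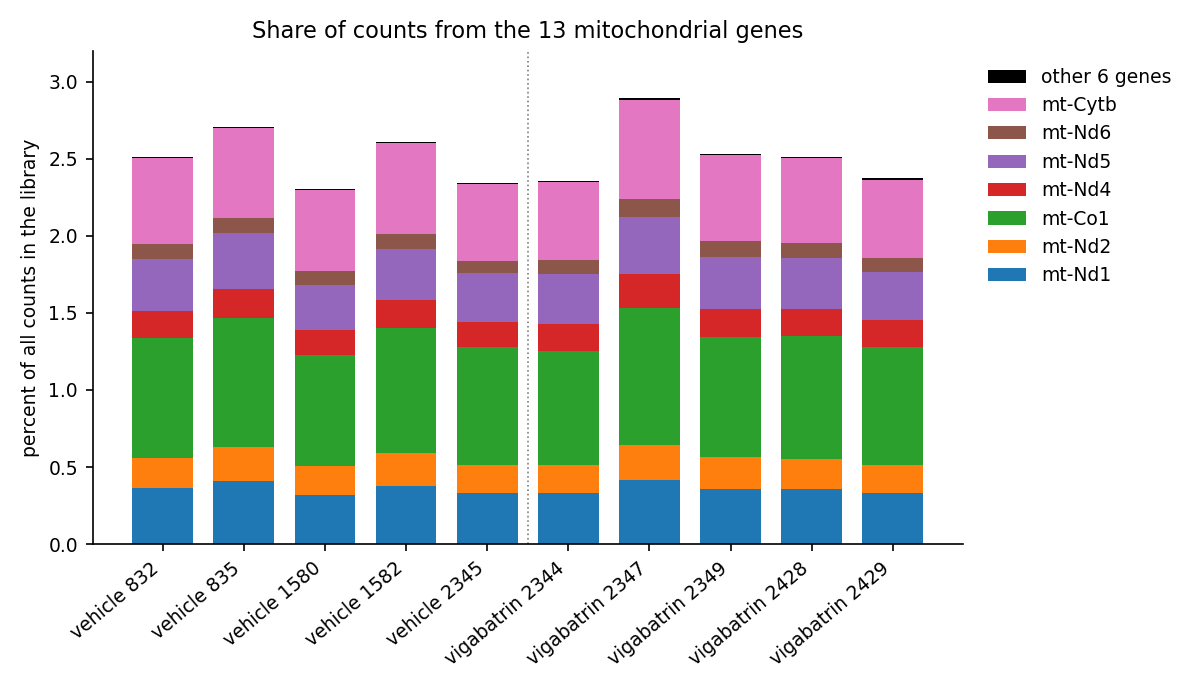
Percent of all counts in each of the 10 libraries that fell on the mitochondrial genes, stacked by gene, with vehicle libraries left of the dotted line and vigabatrin libraries right of it. Totals run from 2.30% in vehicle 1580 to 2.89% in vigabatrin 2347, the groups overlap, and the black band of the other 6 genes is barely visible.

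The difference in share moved with the libraries counted. Without the 4 lens-rich libraries the share was 2.39% ± 0.110 in vehicle and 2.64% ± 0.216 in vigabatrin (SD, n = 3 each). In that subset the groups did not overlap and vigabatrin was higher, though the closest pair, vehicle 832 and vigabatrin 2428, had 2.51022% and 2.51057%. The exact permutation p was 0.1, the smallest that 3 against 3 libraries can give. Within the 4 lens-rich libraries the vigabatrin share was instead lower, by a difference of -0.293 percentage points (2 against 2 libraries without overlap, exact permutation p = 0.333, the smallest this design can give). Leaving out vigabatrin 2347 alone turned the difference over all libraries to -0.0516 percentage points, and leaving out vehicle 1580 turned it to -0.00947. Against the single vehicle library with a title number at or above 2300, the vigabatrin mean was 0.189 percentage points higher, with no test possible. The part of lens tissue in these differences was not tested.

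The complexes showed the same picture as the whole. Complex I genes took 1.16% ± 0.0929 of counts in vehicle and 1.18% ± 0.106 in vigabatrin libraries, and complex IV genes took 0.787% ± 0.0461 and 0.798% ± 0.0557 (SD, n = 5 each). The share of mt-Cytb, the complex III member, was 0.549% ± 0.0381 and 0.552% ± 0.0556. The light-strand gene mt-Nd6 had 0.0932% ± 0.00682 and 0.102% ± 0.0120 (exact permutation p = 0.246, n = 5 each). Every one of these shares had an adjusted p of 0.921. Complex V genes took only 0.00161% and 0.00163% of counts.

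That last share reflects a sharp divide among the 13 genes. A first 7, mt-Nd1, mt-Nd2, mt-Co1, mt-Nd4, mt-Nd5, mt-Nd6 and mt-Cytb, had at least 29796 counts in every library. The other 6, mt-Co2, mt-Atp8, mt-Atp6, mt-Co3, mt-Nd3 and mt-Nd4l, had at most 1367 counts in any library and together made up 0.297% to 0.357% of the mitochondrial counts. Per length, mt-Co1 averaged 5104 CPM per kb of gene over the 10 libraries, mt-Cytb 4810, mt-Nd1 3757 and mt-Nd4 1304. Between them came mt-Nd2 at 1914, mt-Nd6 at 1876 and mt-Nd5 at 1814 CPM per kb, which changed places between libraries. The highest of the low genes was mt-Nd3 at 71.0 CPM per kb, followed by mt-Co2 at 34.2, mt-Atp6 at 23.6, mt-Co3 at 21.8, mt-Nd4l at 7.95 and mt-Atp8 at 0.488. Apart from those 3 genes, and mt-Atp6 with mt-Co3, each gene kept its rank in all 10 libraries. Ranges of neighbours still overlapped for mt-Co1, at 4655 to 5731 CPM per kb, and mt-Cytb, at 4352 to 5620.

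Position on the mitochondrial genome separated the low genes from the others. They lie side by side between mt-Co1 and mt-Nd4: mt-Co2 at 7013 to 7696, mt-Atp8 at 7766 to 7969, mt-Atp6 at 7927 to 8607, mt-Co3 at 8607 to 9390, mt-Nd3 at 9459 to 9806 and mt-Nd4l at 9877 to 10173. On chromosome 1, 7 pseudogenes stand in the same order on the minus strand from 24611535 to 24616197. Their matches lie between mitochondrial bases 6381 and 11042, with gaps between neighbours except the copies of mt-Nd4l and mt-Nd4, which overlap. All 6 low genes lie inside that span of 4662 bases, although most of mt-Atp8 falls in a gap, between bases 7693 and 7927, that no annotated pseudogene matches. The end of mt-Co1 lies in it too, with 492 of its 1545 bases, as do the first 876 of the 1378 bases of mt-Nd4. The remaining 5 genes lie outside it.

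Copies of the low genes in that block were all but exact. Identity was 100% over 681 of the 684 bases of mt-Co2, 678 of the 681 of mt-Atp6, 783 of the 784 of mt-Co3 and 294 of the 297 of mt-Nd4l. For mt-Nd3 it was 99.7% over 345 of 348 bases, the 1 mismatch being the T3C printed above. Of all 100-base windows in these genes, 97.6% to 99.9% occurred unchanged in an annotated nuclear transcript. For mt-Nd4 that share was 60.8%, for mt-Co1 30.8% and for mt-Nd2 3.19%, and it was 0% for mt-Nd1, mt-Nd5, mt-Nd6 and mt-Cytb. Of mt-Atp8, only the last 43 bases, which it shares with mt-Atp6, lie within the match of an annotated pseudogene, Gm10925. That is shorter than a 100-base window, so the windows of mt-Atp8 also gave 0%. The chromosome 1 bases opposite the rest of mt-Atp8 were not analysed here.

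**Figure D2:**
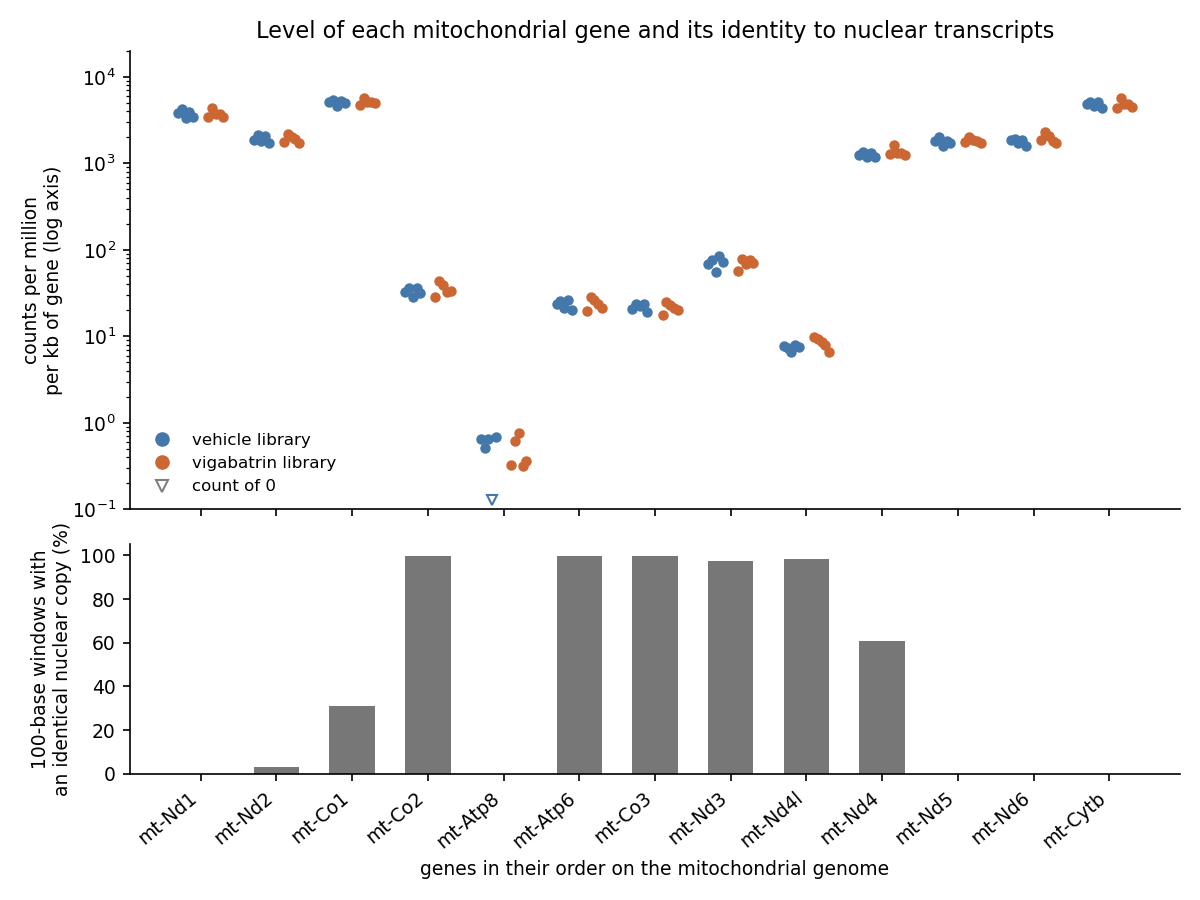
Upper axis, log scale: CPM per kb of each gene in each of the 10 libraries, genes in their order on the mitochondrial genome. Lower axis: percent of the gene's 100-base windows found unchanged in a nuclear transcript, which is 97.6% to 99.9% for 5 of the 6 low genes, and 0% for mt-Atp8, the other one.

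Reads were also assigned to the nuclear copies, and which of the identical places such a read came from cannot be told from the counts. Gm28661, the copy of mt-Co2, averaged 1263 counts per library beside 1085 for mt-Co2, and the ratio of copy to gene stayed between 1.09 and 1.27 over the 10 libraries. Gm10925 had 2.004 to 2.23 times the counts of mt-Atp6, which encodes the proton channel subunit of ATP synthase. Gm28437 had 0.808 to 1.09 times those of mt-Co3, another core subunit of cytochrome c oxidase. The single-mismatch copy of mt-Nd3 received 0.0906 to 0.146 times the gene's counts. In contrast, Gm29216 averaged 711 counts beside 365216 for mt-Co1, and Gm28439 averaged 504 beside 83102 for mt-Nd4. If all counts of these genes came from the bases outside that span, the density of mt-Co1 would be 346834 counts per kb instead of 236386, and that of mt-Nd4 165541 instead of 60306. Which aligner was used, and how reads matching more than 1 place were handled, is not given in the sources, and the part of either in the low counts was not tested. Levels of the 6 low genes, of mt-Nd4 and of mt-Co1 are therefore uncertain, and with the density outside that span mt-Nd4 would rank above mt-Nd2, mt-Nd5 and mt-Nd6, at 88717, 84100 and 86997 counts per kb. Their comparison between groups uses the same counting in every library.

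**Figure D3:**
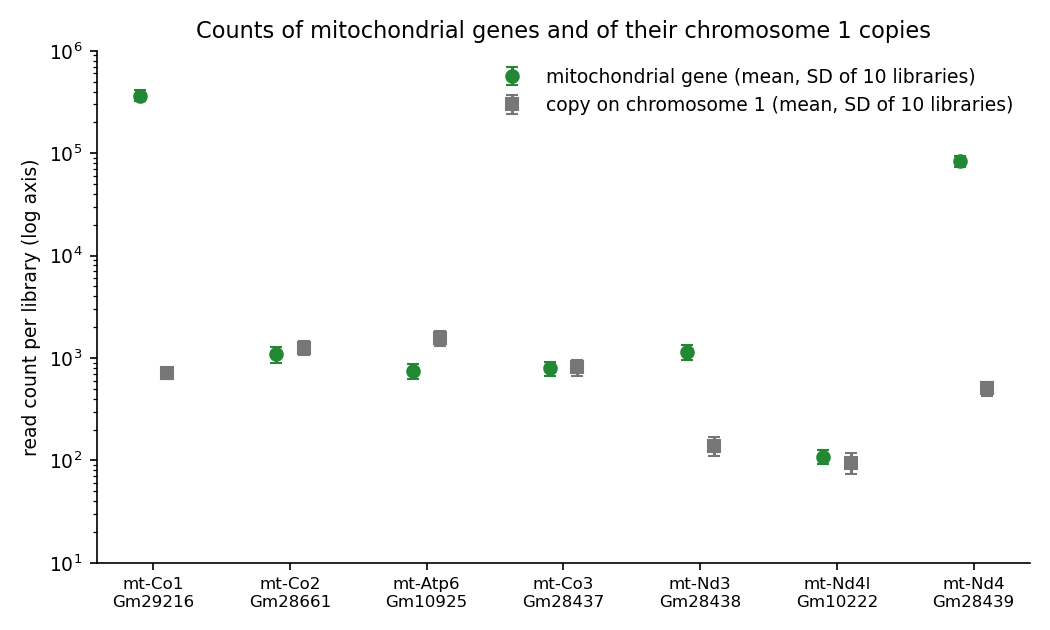
Mean read count per library, on a log axis, of the 7 mitochondrial genes with an annotated copy in the chromosome 1 block (circles) and of that copy (squares), with SD over the 10 libraries. Gene and copy lie close together for mt-Co2, mt-Co3 and mt-Nd4l, and far apart for mt-Co1 and mt-Nd4.

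No mitochondrial gene passed the test of vigabatrin against vehicle. Of the 13 genes, 12 passed the filter on low counts, and mt-Atp8, a small subunit of ATP synthase with 0 to 8 counts per library, did not. By edgeR's quasi-likelihood test with Benjamini-Hochberg adjustment over all 17435 genes tested, 0 of the 12 were called, against 0.00574% of all genes (1 gene, St8sia2). None of the 12 had groups that did not overlap, against 1.48% of all genes, and 0 had an unadjusted p under 0.05, against 7.36% of all genes. Estimates were above 0 for 7 and below 0 for 5, with a median log2 fold change of 0.01, beside -0.00 over all genes. The smallest adjusted p was 0.797, for mt-Nd6. DESeq2's Wald test also called 0 of the 12, against 87 of all 17435 genes. It gave 0 of the 12 an unadjusted p under 0.05, against 7.66% of all genes. With limma-voom 0 of the 12 were called, against 3 of all 17435 genes, and 0 had an unadjusted p under 0.05, against 11.3%.

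Among complex I genes, mt-Nd1, a subunit of the membrane arm close to the quinone site, had 3221 to 4142 CPM in vehicle and 3315 to 4134 CPM in vigabatrin libraries. The estimated log2 fold change of mt-Nd1 was -0.02 ± 0.08 (SE, n = 5 each), with a 95% interval of -0.19 to 0.15. For mt-Nd2, a proton-pumping subunit of the same arm, vehicle libraries spanned 1791 to 2238 CPM and vigabatrin libraries 1792 to 2245, ranges that nearly coincide. The related subunit mt-Nd4 had 1741, 1871, 1627, 1832 and 1634 CPM in vehicle 832, 835, 1580, 1582 and 2345. It had 1777, 2226, 1771, 1775 and 1708 CPM in vigabatrin 2344, 2347, 2349, 2428 and 2429. In all, 4 vigabatrin libraries lay within the vehicle range and only 2347 exceeded it. The log2 fold change of mt-Nd4 was 0.09 (95% interval -0.07 to 0.25, edgeR adjusted p = 0.84).

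A further proton-pumping subunit, mt-Nd5, spanned 2932 to 3738 CPM in vehicle and 3129 to 3625 CPM in vigabatrin libraries, with a log2 fold change of 0.02. The subunit gene mt-Nd6 had 978, 996, 899, 979 and 822 CPM in vehicle 832, 835, 1580, 1582 and 2345, and 973, 1192, 1051, 943 and 900 CPM in vigabatrin 2344, 2347, 2349, 2428 and 2429. Vigabatrin 2347 and 2349 exceeded every vehicle library, and the other 3 lay within the vehicle range. Its log2 fold change was 0.11 (95% interval -0.06 to 0.29). Whether the counting used strand is not given in the sources, so reads of mt-Nd6 and of RNA antisense to it cannot be told apart, and mt-Nd6 also shares 14 bases with mt-Nd5. The low complex I gene mt-Nd4l had the highest estimate of all 12, a log2 fold change of 0.17 (95% interval -0.10 to 0.45). It rests on a mean of 109 counts per library, and its copy Gm10222 had a log2 fold change of 0.19 with a standard error of 0.18. The last complex I gene, mt-Nd3, had 19.4 to 29.5 CPM in vehicle and 20.4 to 27.4 CPM in vigabatrin libraries.

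For complex III, mt-Cytb had 5577, 5885, 5221, 5892 and 4953 CPM in vehicle 832, 835, 1580, 1582 and 2345, and 5136, 6369, 5483, 5435 and 5077 CPM in vigabatrin 2344, 2347, 2349, 2428 and 2429. The highest value was in vigabatrin 2347 and the lowest in vehicle 2345, while the other 8 libraries of the 2 groups interleaved. Its log2 fold change was -0.00 (95% interval -0.15 to 0.15). For complex IV, mt-Co1 had 7828, 8523, 7198, 8144 and 7605 CPM in the same vehicle order, and 7521, 8771, 7744, 7852 and 7660 CPM in the same vigabatrin order. Its log2 fold change of 0.01 had the narrowest interval of the 12, from -0.11 to 0.13. The low genes mt-Co2 and mt-Co3 had log2 fold changes of 0.09 and -0.04, and mt-Atp6 of complex V had 0.00, with standard errors of 0.11, 0.09 and 0.11. Among the 7 genes with high counts the interval with the highest upper bound, that of mt-Nd6, ended at 0.29.

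Direction depended on the libraries used. Without the 4 lens-rich libraries, 12 of 12 estimates were above 0 with a median log2 fold change of 0.17, 5 had an unadjusted p under 0.05, against 7.54% of all genes in that fit, and 0 were called by edgeR. With the lens level as a term over all 10 libraries, 6 of 12 were above 0, with a median of -0.0002. There 0 had an unadjusted edgeR p under 0.05, against 7.75% of all genes, and 0 were called. With a term for the title number range, 11 of 12 were above 0 with a median of 0.16. In that fit the group estimate rests on vehicle 2345, the only vehicle library in the range of the vigabatrin libraries. The genes share a common level in each library, so these counts are not independent. Over all genes the medians were 0.001 without the lens-rich libraries, 0.0005 with the lens level and 0.01 with the title number range. Leaving out vigabatrin 2347 left 4 of 12 above 0 and a median of -0.05, whereas leaving out vigabatrin 2344 left 12 of 12 above 0 with a median of 0.03.

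**Figure D4:**
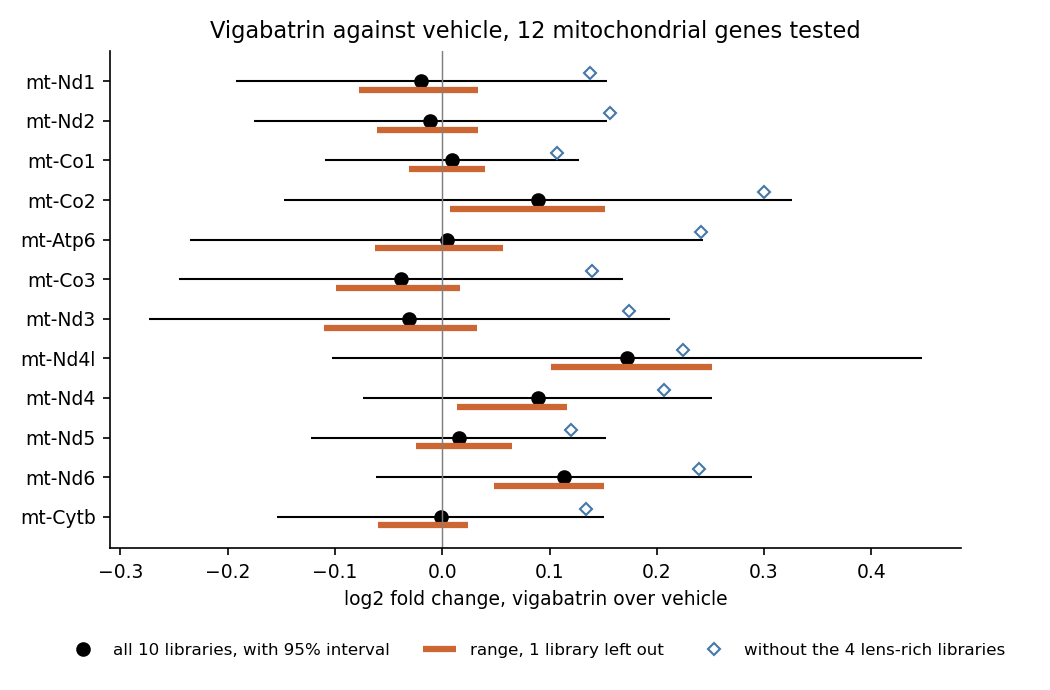
Log2 fold change of vigabatrin over vehicle for the 12 genes tested: points and thin lines give the estimate over 10 libraries and its 95% interval, thick bars the range when 1 library is left out, and diamonds the estimate without the 4 lens-rich libraries. Every interval includes 0, and every diamond lies above 0.

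Libraries moved up or down with most mitochondrial genes at once. Over the 7 genes with high counts, a common level per library held 85.5% of the variance between libraries in the log2 share of counts. Vigabatrin 2347 lay highest, on average 0.23 above each gene's mean on the log2 scale, from 0.15 for mt-Nd5 to 0.33 for mt-Nd4. Vehicle 835 lay 0.10 above, and vehicle 1580 and vehicle 2345 each lay at -0.12. In vehicle 2345 the genes spread most widely downwards, from -0.23 for mt-Nd6 to -0.04 for mt-Co1. The library level thus differed by more within each group than between the groups.

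**Figure D5:**
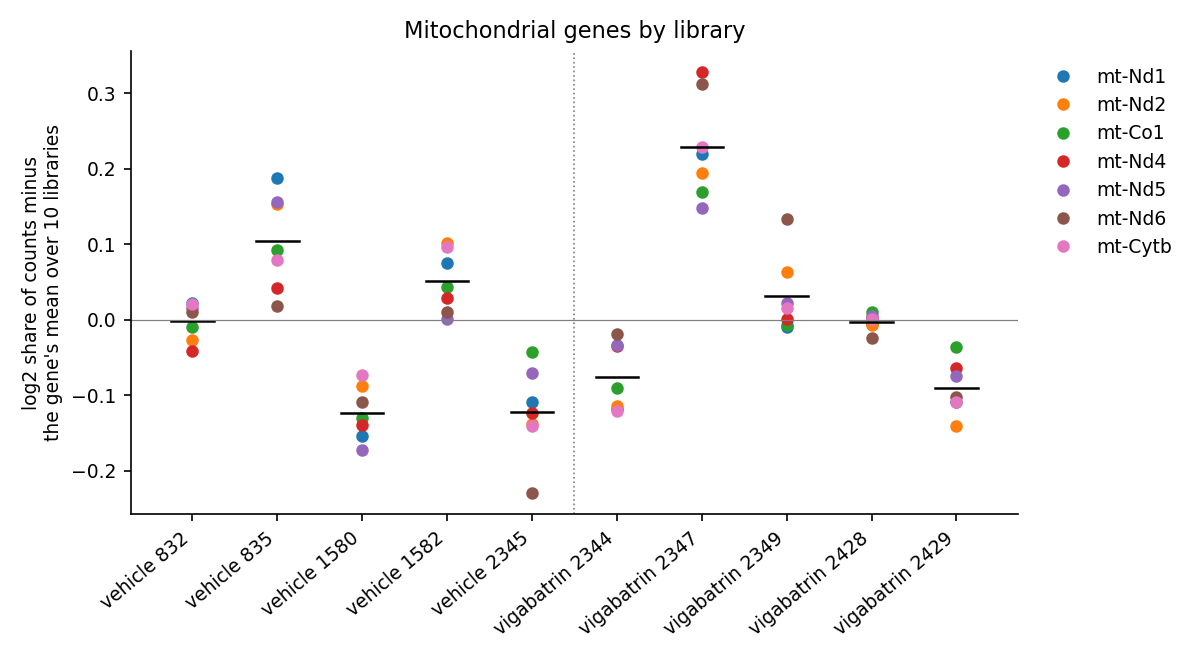
Log2 share of counts minus the gene's mean over the 10 libraries, for the 7 genes with high counts, with a black line at the mean of the 7 in each library. Vigabatrin 2347 lies highest, at a mean of 0.23, and vehicle 1580 and 2345 lowest, both at -0.12.

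Taking each gene as a percent of the 13 genes' counts removes that common level. On this scale mt-Nd4 made up 6.93%, 6.81%, 7.06%, 6.999% and 7.01% in vehicle 832, 835, 1580, 1582 and 2345. It made up 7.41%, 7.77%, 7.08%, 7.14% and 7.22% in vigabatrin 2344, 2347, 2349, 2428 and 2429. The groups did not overlap, and the highest vehicle value, 7.062%, was close to the lowest vigabatrin value, 7.081%. Means were 6.96% ± 0.0989 and 7.32% ± 0.277 (SD, n = 5 each), with an unadjusted exact permutation p of 0.00794, the smallest that 5 against 5 libraries can give. It was 1 of 13 such tests, and after Benjamini-Hochberg adjustment over the 13 genes 0 passed 0.05. The adjusted exact permutation p of mt-Nd4 was 0.103. With 13 tests and that smallest p, 1 gene alone could not have passed, so the adjusted result cannot decide about mt-Nd4. With counts per kb in place of counts the groups overlapped, at 6.13% in vehicle and 6.44% in vigabatrin libraries on average (exact permutation p = 0.0238). The next lowest unadjusted p was that of mt-Nd6, at 3.74% ± 0.164 and 4.003% ± 0.193 (exact permutation p = 0.0635, n = 5 each). The other 11 genes had unadjusted exact permutation p-values of 0.183 or above. In the chromosome 1 block, the copy of mt-Nd4 had a log2 fold change of 0.15 with a standard error of 0.09 (edgeR adjusted p = 0.789).

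Genes in the nucleus that serve the mitochondrial genome were followed by lists. For replication and transcription of mitochondrial DNA, 18 of 21 listed genes were in the table and tested, 6 with estimates above 0 and 12 below, a median log2 fold change of -0.02, and 0 called. These lists' counts are read against the same 0.00574% of all genes called. Rrm2b, a ribonucleotide reductase subunit that supplies nucleotides for mitochondrial DNA, was the 1 gene of this list whose groups did not overlap, beside 1.48% of all genes. It had 30.5 ± 0.934 CPM in vehicle and 33.7 ± 1.93 CPM in vigabatrin libraries (SD, n = 5 each; log2 fold change 0.14, SE 0.05, edgeR adjusted p = 0.544). Tfam, which packages mitochondrial DNA and starts its transcription, had 22.6 CPM in vehicle and 20.6 CPM in vigabatrin libraries (log2 fold change -0.13, standard error 0.08, edgeR adjusted p = 0.759). Polg2, the accessory subunit of the mitochondrial DNA polymerase, had 42.9 and 39.3 CPM (log2 fold change -0.13). For RNA processing, modification and decay, 30 of 32 genes were tested, 18 above 0 and 12 below, with a median of 0.01 and 0 called. Elac2, the nuclease that cuts the 3′ ends of mitochondrial tRNAs, had 34.8 and 33.0 CPM (log2 fold change -0.08). Mtpap, the mitochondrial poly(A) polymerase, had 16.7 and 15.2 CPM (log2 fold change -0.14).

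All 8 regulators of mitochondrial biogenesis were tested, 6 above 0 and 2 below, with a median of 0.02 and 0 called. Ppargc1b, a coactivator of genes for mitochondrial proteins, had 75.6 CPM in vehicle and 63.1 CPM in vigabatrin libraries, a log2 fold change of -0.26 with a standard error of 0.07 (edgeR adjusted p = 0.489). Gabpa and Esrra, transcription factors with targets among mitochondrial genes, had log2 fold changes of 0.10 and 0.08, and Nrf1, another such factor, had -0.08. All 35 listed respiratory chain and ATP synthase subunits encoded in the nucleus had estimates below 0, with a median log2 fold change of -0.06, beside -0.00 over all genes, and 0 were called. Over all genes tested, 8817 of 17435 estimates were below 0. The 35 were measured in the same libraries, so their directions are not independent, and counts of direction are no test. Cell type lists went both ways. Estimates were below 0 for 9 of 10 rod genes (median -0.07), 4 of 5 cone and 3 of 4 bipolar markers. The same direction held for 8 of 9 pigment epithelium and choroid (median -1.07), 3 of 3 tested cornea (median -2.25) and 5 of 5 blood markers (median -0.58). Median standard errors in these lists were 0.97, 0.71 and 0.56, beside 0.04 for the rod genes. Estimates were above 0 for 14 of 14 tested lens (median 0.35, median standard error 1.60), 4 of 4 tested muscle (median 0.13) and 4 of 6 amacrine and ganglion markers (median 0.01). Muller glia markers had 2 above 0 and 2 below, and 0 genes of these lists were called. An unadjusted edgeR p under 0.05 was found for 2 rod, 4 pigment epithelium and choroid, 3 cornea and 2 Muller glia genes. The other cell type lists had 0, against 7.36% of all genes. Sag, the rod arrestin, had 3968 ± 190 CPM in vehicle and 3431 ± 150.2 CPM in vigabatrin libraries (SD, n = 5 each, edgeR adjusted p = 0.311). It was the 1 rod gene whose groups did not overlap, beside 1.48% of all genes. The part of these cell types in the nuclear subunits' estimates was not tested. Of the 35 subunits 3 had an unadjusted edgeR p under 0.05, against 7.36% of all genes, a share near the background. Cox6c, a subunit of cytochrome c oxidase, had the lowest estimate of the 3, with 100.1 and 89.0 CPM and a log2 fold change of -0.17. The others were Cox5a of the same complex, at -0.14, and Cyc1, the cytochrome c1 subunit of complex III, at -0.10. This direction was kept with the lens level as a term, at 35 of 35 below 0 and a median of -0.06. With 1 library left out 33 to 35 were below 0, by DESeq2's Wald test 35 and by limma-voom 34. The fit that left out the 4 lens-rich libraries had 26 of 35 below 0 and a median of -0.03. With the title number range in the fit, 15 of 35 were below 0, with a median of 0.02. That fit rests on vehicle 2345, the only vehicle library in the range of the vigabatrin libraries. The mitochondrial genes, with 7 of 12 estimates above 0, did not share that direction. No test compared the 2 sets.

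Across the 10 libraries, the mitochondrial share was set beside the mean log2 CPM of these 35 nuclear subunits and of the 10 rod genes, 2 relations in all. With the nuclear subunits, Pearson's r was 0.493 (permutation p = 0.147, adjusted 0.295) and Spearman's rho 0.164 (permutation p = 0.658, adjusted 0.84). Without vehicle 1580 and vigabatrin 2347, the libraries farthest from the median share, r was 0.744. Over the 6 libraries with title numbers at or above 2300 it was 0.857. Those 6 include vigabatrin 2347, the highest of them on both measures, at 2.89% and a mean log2 CPM of 6.43. The others lay at 2.34% to 2.53% and at 6.29 to 6.31, and r among them alone was not computed. With the rod genes, r was 0.143 (permutation p = 0.695) and rho -0.08 (permutation p = 0.84), and r was 0.488 without the same 2 libraries and 0.526 over the same 6. Both relations over all libraries missed the threshold, and the points share their library depth.

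One list differed between the groups without a call. The ribosomal RNA locus and structural RNA list, of which 4 of 8 members are in the table and 1 of those is at 0 throughout, summed to 104 to 182 CPM in vehicle and 303 to 428 CPM in vigabatrin libraries. The summed levels of the groups did not overlap, although 0 of its 3 tested members were called, and Lars2, the gene of the mitochondrial leucyl-tRNA synthetase, carried most of the sum. Lars2 had 144 ± 36.2 CPM in vehicle and 340 ± 56.0 CPM in vigabatrin libraries (SD, n = 5 each), a log2 fold change of 1.24 with an edgeR adjusted p of 0.104. Gm26917, a transcript of the ribosomal RNA locus list, had 4.80 ± 1.29 and 12.4 ± 3.74 CPM (SD, n = 5 each), again without overlap (edgeR adjusted p = 0.18), while the groups of Gm15564 overlapped (edgeR adjusted p = 0.611). Of the 3 tested members, 2 thus had groups without overlap, beside 1.48% of all genes. All 3 had an unadjusted edgeR p under 0.05, against 7.36% of all genes. The list was chosen with earlier results of these data known, so these counts are no test of it. The part of whatever this list reflects in the mitochondrial shares was not tested. With this list and the lens and pigment epithelium lists taken out of the total, the mitochondrial share was 2.51% in vehicle and 2.55% in vigabatrin libraries.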

How the data were processed

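The authors deposited whole-number read counts per Ensembl gene. HTSeq 0.6.1, DESeq2, edgeR 3.16.5 and mm10 are named in the submitters' processing notes. Neither aligner, annotation release nor strand setting is given in the sources used here. RNA was extracted with Qiazol from frozen retinas, per the labels' protocols. The table's 1 count column matching no sample used here entered no step.

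After filterByExpr and TMM scaling, edgeR 4.0.16 (glmQLFit, glmQLFTest, R 4.3.3) was run on the whole table with a single term for group, and genes with an adjusted p under 0.05 were called. CPM values of single genes and mean log2 CPM of lists use TMM library sizes. Summed CPM of lists, the CPM limit of a count of 0, shares and CPM per kb use all counts without TMM scaling. CPM per kb also uses deposited gene lengths. The common biological coefficient of variation was 0.191, and the median standard error of a log2 fold change 0.09. Shares were tested by exact permutation. Libraries of a group differed by a chi-square per degree of freedom of 8.46 to 139, so none was taken for the same library deposited again, a check that libraries from 1 animal would pass too. Nuclear copies were found by aligning mitochondrial transcripts to GENCODE M21 transcripts with blastn 2.17.0, keeping at least 85% identity over at least 100 bases, and the 13 genes have the same start, end and strand in that annotation and in the table. The tests were checked on simulated data.

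The members and lists were chosen with earlier results of these data known. Every mitochondrial gene is named, up to 4 genes of smallest p per nuclear list were eligible, and Lars2 and nuclear copies were named by rule. Sag was named after its values were seen. Alternatives covered DESeq2 1.42.0, limma 3.58.1, scaling, filters, title number range, lens level and each library left out.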

Additional observations from a re-analysis of the deposited data

Results flagged for a closer look

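In 40 groups of 5 values examined, 5 had 1 library far from the other 4, where 2 are expected by chance if the values were independent. They are not, because shares and CPM reuse the same genes and the genes share a common level per library. The 2 numbers therefore measure no excess. Vigabatrin 2347 stood above its group for 3 genes. It had 4134 CPM of mt-Nd1 against 3315 to 3532 in the other vigabatrin libraries, 8771 CPM of mt-Co1 against 7521 to 7852, and 2226 CPM of mt-Nd4 against 1708 to 1777. The same library had the highest mean log2 CPM of the nuclear respiratory chain genes in its group, 6.43 against 6.29 to 6.31. Vehicle 1582 had 0 CPM of mt-Atp8 against 0.106 to 0.138 in the other vehicle libraries, and a count of 0 at its depth allows up to 0.0656 CPM (3 counts).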

How the results depend on the processing

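Over the alternatives run, 0 mitochondrial genes were called in any. The difference in mitochondrial share ranged from -0.0516 to 0.0917 percentage points with 1 library left out and was -0.293 within the 4 lens-rich libraries, a subset chosen after seeing the data. Genes called over the whole table, 1 in the report, were 0 with total library size, without a filter on low counts, with the title number range, with the lens level and without the 4 lens-rich libraries, 3 with limma-voom and 87 with DESeq2's Wald test. With 1 library left out they ranged from 0 to 39, the latter without vehicle 2345; the cause was not tested. Log2 fold changes near 0 changed sign, and those with the title number range rest on vehicle 2345, the only vehicle library in the range of the vigabatrin libraries. That of mt-Cytb was 0.00906 with total library size, 0.0123 with upper quartile scaling, 9.19e-06 without a filter, 0.00808 with limma-voom, 0.151 with the title number range and 0.134 without the lens-rich libraries. That of mt-Nd2 was 0.00257 with upper quartile scaling. With limma-voom, with the title number range and without the lens-rich libraries mt-Nd2 had 0.0185, 0.145 and 0.156, and mt-Nd1 had 0.0130, 0.112 and 0.137. The value of mt-Nd3 was 0.0302 with limma-voom and 0.174 without the lens-rich libraries, and that of mt-Co3 was 0.183 with the title number range and 0.139 without them. With the lens level as a term, mt-Atp6 had -0.00680. With 1 library left out, log2 fold changes ranged from -0.0774 to 0.0336 for mt-Nd1, -0.0605 to 0.0334 for mt-Nd2, -0.0308 to 0.0399 for mt-Co1, -0.0626 to 0.0564 for mt-Atp6, -0.0994 to 0.0164 for mt-Co3, -0.110 to 0.0323 for mt-Nd3, -0.0249 to 0.0649 for mt-Nd5 and -0.0598 to 0.0241 for mt-Cytb. No paired analysis was possible because the numbers in the titles are not shared between the groups. Counts of mt-Atp8 are too low for a comparison at this depth.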
